A study of Homo sapiens with 7 samples.

Results

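The genes described here are 8 ETS transcription factors of blood cells, FLI1, ERG, ETV6, ETS1, ETS2, GABPA, ELF1 and SPI1. They were chosen by family and by their known activity in blood cells, and no measured value entered the rule. Earlier results of these data were known when the choice was made. The genes were found by symbol among the 62238 genes of the RNA-seq count files. All 8 passed the filter on low counts. The RNA-seq was performed to see how gene expression and exon usage differ when RBM15, an RNA-binding protein that takes part in splicing, is reduced. It comprised 1 control library and 2 libraries of RBM15 knockdown, 1 each with shRBM15#1 and shRBM15#2, all from MEG-01, an established human megakaryoblastic leukemia cell line. The RIP-seq, in which RNA bound to RBM15 is immunoprecipitated and sequenced, comprised 4 libraries of the same line. Of these, 1 precipitated with normal IgG and 1 precipitated with anti-RBM15 antibody could be assigned to a condition. All 7 libraries, the control included, are labelled as cells with lentiviral transgenes at passage 5, grown in RPMI1640 with 10% FBS and harvested in exponential phase. The control carries no knockdown label, and the sources do not tie each shRNA library to more than 1 culture, so the p-values measure only the spread between these libraries. Exact permutation of 1 library against 2 cannot go below p = 0.333, and the tests below therefore use edgeR models that share the estimate of the spread over all genes.

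ETS factors share a DNA-binding domain that recognises a GGAA core, and they work beside RUNX1, GATA factors and TAL1 at the enhancers of blood cell genes. FLI1 and ERG are close relatives that maintain stem cells and drive the MK lineage, ETV6 is a repressor needed for stem cells and platelets, and SPI1 (PU.1) directs the myeloid and B cell lineages. ETS1 is best known from lymphocytes, ETS2 is a widely expressed relative downstream of MAP kinase signalling, GABPA pairs with GABPB1 to drive nuclear genes of mitochondria and the cell cycle, and ELF1 acts in T cells and blood vessels.

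FLI1 and ERG each carried 1 of the 1515 deposited RBM15 RIP-seq sites, both of them in introns and on the strand of the gene. The FLI1 site spans 516 bases at chr11:128673166-128673681 (hg19, plus strand). It lies in intron 5 of the 9-exon reference transcript, 21247 bases from the start and 1579 bases from the end of that intron. The ERG site lies in intron 1 of the 10-exon reference transcript. The sequence of the FLI1 site is shown because it is a stretch of member RNA recovered with RBM15. The central 281 bases are given, chr11:128673283-128673563. Capitals mark the word CCTC, which was chosen after the sequence had been read and was searched on both strands.
FLI1 site, centre: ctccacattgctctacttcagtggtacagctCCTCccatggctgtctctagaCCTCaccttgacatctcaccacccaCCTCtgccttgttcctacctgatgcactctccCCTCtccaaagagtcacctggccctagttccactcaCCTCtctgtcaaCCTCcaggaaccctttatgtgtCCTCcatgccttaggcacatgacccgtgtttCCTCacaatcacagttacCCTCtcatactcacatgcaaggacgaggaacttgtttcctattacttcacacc

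The FLI1 window held CCTC 9 times on the RNA strand. Among the central windows of the same length in 618 intronic sites, 69.7% held CCTC on the RNA strand, against 21.8% on the other strand. The median window held 2 matches on the RNA strand and 0 on the other. These windows held more C than G, which by itself favours CCTC over its complement. Introns without a site were not searched, so the shares do not test whether RBM15 prefers this word. The FLI1 window was 38.1% C and 13.5% G, close to the medians of 36.3% and 13% over those windows. G was the rarest base in the FLI1 window, and its upper quartile over the 618 windows was 16.4%.

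At the FLI1 site 6 reads were counted in the normal IgG library and 195 in the anti-RBM15 library. The ratio of the 2 libraries was 32.5, with an exact binomial 95% interval of 14.7 to 89.6 that covers counting error only. At the ERG site 8 and 155 reads were counted, a ratio of 19.4 (9.59 to 45.7). The deposited list holds only sites that passed the authors' test, so an excess over IgG is a condition of being listed and was not tested again. Over all sites, 37.6% had fewer anti-RBM15 reads than the FLI1 site and 27.9% had fewer than the ERG site. The median of the 760 intronic sites, 185.5 reads, lay between the 2 sites. No site carried the symbol of ETV6, ETS1, ETS2, GABPA, ELF1 or SPI1, and none overlapped their spans on either strand. As background, 10.5% of the 7500 tested genes with a symbol and at least the summed count of the lowest member carried a site, and 3.76% of all 24122 tested genes with a symbol.

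**Figure D1:**
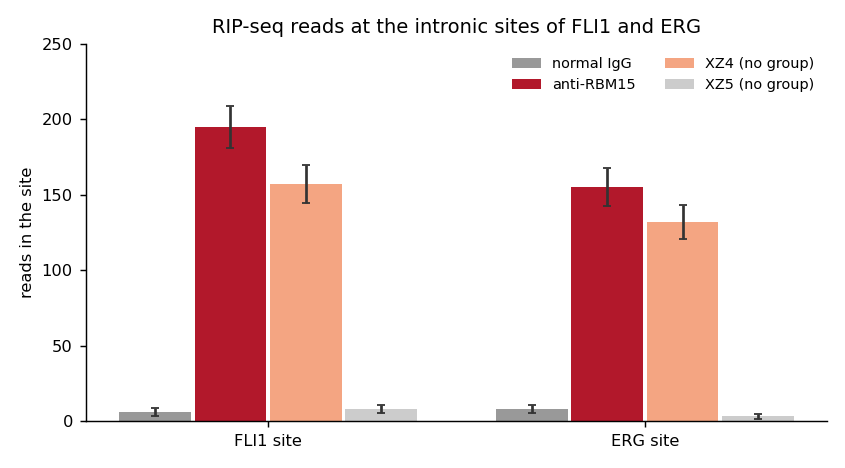
Reads counted in the intronic RIP-seq sites of FLI1 and ERG in each of the 4 libraries, with bars for the square root of the count. The anti-RBM15 library held 195 and 155 reads and the normal IgG library 6 and 8; libraries XZ4 and XZ5 belong to no group because their antibody labels conflict with the authors' comparison.

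The libraries held 53230029 (control), 41629454 (shRBM15#1) and 52458857 (shRBM15#2) counts on exon bins. RBM15 itself stood at 80.2 normalised CPM (counts scaled to library size) in control cells, 43.7 under shRBM15#1 and 40.65 under shRBM15#2, a log2 fold change of -0.93 ± 0.23 (SE) with an edgeR adjusted p of 0.0908. Transcripts of the targeted gene were thus lower in both lines, short of the threshold. The 6 MK and erythroid markers summed to 1134 to 1432 CPM and the 6 lymphoid markers to 4.83 to 6.23, with 0 genes of either list at 0. Over all 24887 tested genes, 86 passed an adjusted p of 0.01 in edgeR's quasi-likelihood test, 17 higher and 69 lower, which is 0.346%. Since only 1 control was sequenced, the error rests on how far the 2 knockdown lines lie apart, and a difference between this control culture and others cannot be told apart from the knockdown.

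Per kb of exon bins, ETS2 was the most abundant of the 8 genes in the control, at 40.1 CPM per kb. ELF1 followed at 22.6, SPI1 at 15.4 and ETV6 at 13.2. On this scale FLI1, ERG and GABPA lay close together at 7.73, 7.01 and 6.66. That range was narrower than the gap between the knockdown lines for FLI1, which stood at 11.05 and 13.8. ETS1 was the lowest in every library, at 2.91 in control cells and 3.87 and 2.41 after knockdown. ETS2 and ELF1 kept the top of the order in all 3 libraries, while FLI1 was the fifth in the control and the third in both lines. These levels are sums over all annotated bins, so a gene with long unused exons reads low. The middle of the order depended on this length. The median control count per base over coding bins, the shortest left out, was 1.34 for FLI1, 1.21 for ERG and 0.359 for GABPA. By that measure ETS2 (4.12) and ELF1 (2.31) stayed highest and ETS1 (0.181) lowest. ETV6 (1.42) and FLI1 then lay above SPI1 (1.26).

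FLI1 was the only member with higher values in both knockdown lines. It was measured at 61.8 normalised CPM in control cells, 88.4 under shRBM15#1 and 110.1 under shRBM15#2, that is 143% and 178% of the control. All 17 of its tested exon bins were above the control in both lines. Bins of a gene come from the same 3 libraries and follow its total. Tallies of bins, here and for the members below, therefore add no replication. The fitted log2 fold change was 0.68 ± 0.25 (SE), with an adjusted p of 0.202 in edgeR. FLI1 is located on chromosome 11 (128555046 to 128683161 in GRCh37) and is identified as ENSG00000151702.

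ERG (ENSG00000157554, chr21:39751949-40033704), the nearest relative of FLI1, had values on the other side of the control. It was measured at 56.1 in control cells, 37.74 under shRBM15#1 and 41.2 under shRBM15#2, or 67.3% and 73.5% of the control. In 18 of its 22 tested bins both lines were below the control. The log2 fold change was -0.51 ± 0.24 (SE), with an adjusted p of 0.29 in edgeR. The 2 members with an RBM15 site thus lay on opposite sides of the control, and neither passed the threshold.

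ETV6 (ENSG00000139083, chr12:11802788-12048336) showed the largest fitted difference among the members, although SPI1 under shRBM15#1 lay farther from the control. Its values were 93.4 in control cells, 44.9 under shRBM15#1 and 51.5 under shRBM15#2, 48.1% and 55.1% of the control. Both lines were below the control in 15 of 16 tested bins. The log2 fold change was -0.95 ± 0.23 (SE), and the adjusted p was 0.086 in edgeR, 0.0519 in DESeq2 and 0.0257 when no filter was set on low counts, all above the 0.01 threshold.

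ETS2 (ENSG00000157557, chr21:40177231-40196879) was measured at 184 in control cells and at 129.8 and 131 after knockdown. The knockdown lines lay close together, at 70.5% and 71.0% of the control, and 14 of 15 tested bins were below the control in both. Its log2 fold change was -0.50 ± 0.22 (SE), with an adjusted p of 0.26 in edgeR. ETS1 (ENSG00000134954, chr11:128328656-128457437), the other member of the ETS pair, had 17.9 in control cells, 23.8 under shRBM15#1 and 14.85 under shRBM15#2. The control lay between the lines, and the log2 fold change was 0.11 ± 0.34 (SE) with an adjusted p of 0.895.

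SPI1 (ENSG00000066336, chr11:47376411-47400127) was the member in which the shRNAs differed most. It was measured at 31.9 in control cells, 10.8 under shRBM15#1 and 27.98 under shRBM15#2. The shRBM15#1 value was 33.8% of the control and the shRBM15#2 value 87.8%, and all 12 tested bins were below the control with shRBM15#1 against 9 of 12 in both lines. The log2 fold change of -0.72 had an SE of 0.46 and an adjusted p of 0.436 in edgeR. RBM15 stood at 43.7 and 40.65 CPM in these lines, a smaller gap than that of SPI1. Whether the 2 gaps are related was not tested.

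GABPA, ETS1 and ELF1 had the fitted values nearest to the control. GABPA (ENSG00000154727, chr21:27106881-27144771) had 36.15 in control cells, 33.1 under shRBM15#1 and 40.1 under shRBM15#2, with the control between the lines and a log2 fold change of 0.02 ± 0.26 (SE). ELF1 (ENSG00000120690, chr13:41506056-41635576) had 99.5 in control cells and 83.4 and 98.2 after knockdown, with a log2 fold change of -0.13 ± 0.23 (SE). Their adjusted p-values were 0.98 and 0.802 in edgeR.

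**Figure D2:**
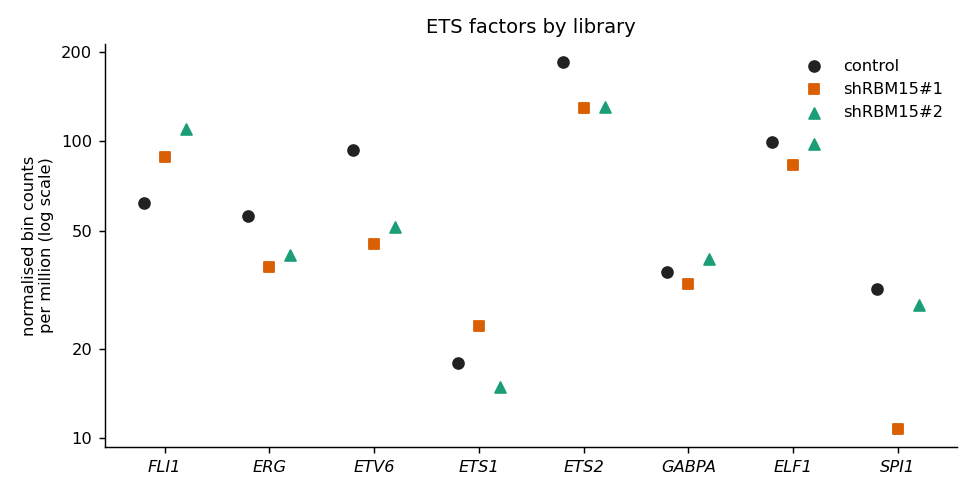
Normalised CPM over exon bins (log axis) of the 8 ETS factors in the control library and in the shRBM15#1 and shRBM15#2 libraries, 1 point for each library. FLI1 lies above the control in both lines (88.4 and 110.1 against 61.8), ERG, ETV6, ETS2, ELF1 and SPI1 lie below it, and ETS1 and GABPA lie on both sides of it.

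Of the 8 members, 0 passed the adjusted p of 0.01 in edgeR, and 0 passed in DESeq2, where 3.43% of the genes with an adjusted p did. At an unadjusted p under 0.05, 3 members passed in edgeR (FLI1, ETV6 and ETS2). In the same test 18.8% of all tested genes passed, and 22.5% of the 7581 genes with at least the lowest member's summed count. In DESeq2 2 members passed, FLI1 and ETV6, and no share over all genes was taken for that test. Both lines lay on the same side of the control for 6 of 8 members, 1 higher and 5 lower, against 79.3% of all genes. The median log2 fold change of the members was -0.32. Low and high genes did not share a centre in these libraries. The median was 0.43 over the 11893 genes with a summed count under 300 and -0.13 over the genes with at least the lowest member's count.

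**Figure D3:**
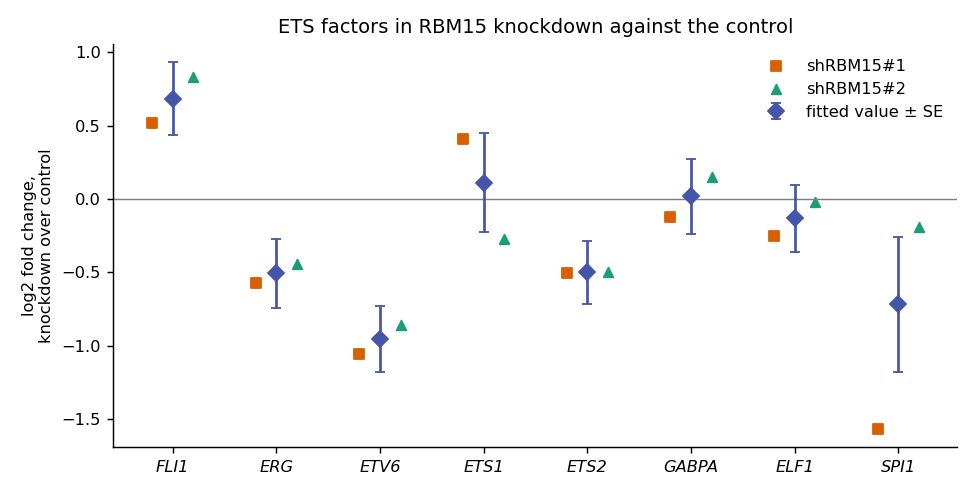
Log2 fold change of each ETS factor in RBM15 knockdown over the control, as the fitted value with its SE (diamonds) and as the value of each line. ETV6 is the lowest fitted value (-0.95), FLI1 the highest (0.68), and the lines of SPI1 lie farthest apart.

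Differential exon usage was compared over 155 bins of the 8 genes, of which 120 had a summed count of at least 30. A bin is a stretch of exon between annotated exon edges, and its relative log2 fold change is its change against that of the whole gene. By the limits the study used (a fold above 1.2 at an unadjusted p under 0.05), 4 member bins were called, against 1.45% of all 234192 tested bins. At an adjusted p under 0.05, 0 member bins passed in edgeR's diffSpliceDGE, and 48 did over all bins (0.0205%).

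The called bins of FLI1 were the upstream edge of its first exon. Bin 005 (chr11:128563890-128563982, 93 bases, untranslated) held 15 counts in control cells, 72 under shRBM15#1 and 85 under shRBM15#2. It took 0.491% of the gene's counts in the control (95% Wilson interval 0.297 to 0.808), 1.82% (1.45 to 2.29) with shRBM15#1 and 1.48% (1.2 to 1.83) with shRBM15#2. The intervals of both lines lay above that of the control, but they cover counting error within 1 library and not the spread between cultures. In the last exon of ETS2, bin 015, the intervals separated too, at an unadjusted edgeR p of 0.659. There the lower limit of the control was 40.1% and the upper limits of the lines were 38.9% and 39.4%. In FLI1 bin 005 the relative log2 fold change was 1.73 ± 0.47 (SE), with an unadjusted edgeR p of 0.000225 that became 0.325 on adjustment over all bins. Bin 006, the next 4 bases, held 15, 63 and 82 counts and shares reads with its neighbours. The remaining 185 bases of the same exon, bin 007, took 5.49%, 7.03% and 6.89% of the counts, a relative log2 fold change of 0.34 with an unadjusted edgeR p of 0.225. The annotated start exons farther upstream, bins 001 to 004, held 3, 10 and 0 counts in all. In each library far fewer FLI1 counts fell on those exons than on bin 007.

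The RIP-seq site of FLI1 ended 90 bases before bin 016, a stretch of 1490 bases that is exonic in 1 non-coding transcript and intronic in the others. Bin 016 took 0.687% of the counts in control cells, 0.91% under shRBM15#1 and 0.713% under shRBM15#2. The 66-base coding exon that follows it, bin 017, took 3.04%, 3.23% and 3.78%, and the intronic bin 018 after that exon 2.65%, 2.75% and 2.52%. The p-values were 0.642, 0.48 and 0.982, and the intervals of the 3 libraries overlapped in all 3 bins.

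In ERG no bin was called. The smallest p, 0.154, was that of bin 010 (62, 23 and 34 counts), a stretch next to the 72-base exon that is exonic in non-coding transcripts only. ERG is known for start exons that are used in different tissues and for in-frame coding exons that are left out of some isoforms. The 5 bins of the proximal start exon together held 210 counts in control cells, 111 under shRBM15#1 and 211 under shRBM15#2. The 6 bins upstream of it together held 50, 47 and 26. These sums were 7.57%, 6.57% and 9.81% against 1.8%, 2.78% and 1.21% of the counts. The proximal bins adjoin and are 59 bases or shorter, so 1 read can be counted in several of them. The largest of them, bin 020, held 84, 44 and 73 counts. Upstream, the most counts in a single bin were 16, 17 and 7. By single bins, as by the sums, the proximal exon led in each library. Adjoining bins upstream can share reads too, so the number of distinct reads is not settled.

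The alternative coding exons of ERG are shown because their inclusion is what exon usage could alter. They were read on the minus strand of GRCh37.
ERG exon of 81 bases, bin 012 (chr21:39774479-39774559): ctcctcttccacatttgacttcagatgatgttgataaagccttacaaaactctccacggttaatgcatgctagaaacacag
ERG exon of 72 bases, bin 011 (chr21:39772496-39772567): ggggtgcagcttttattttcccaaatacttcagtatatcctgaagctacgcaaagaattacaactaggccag
The 81-base exon held 85, 63 and 81 counts, or 3.06%, 3.73% and 3.77% of the gene. The 72-base exon held 69, 43 and 44, or 2.49%, 2.54% and 2.05%. The relative log2 fold changes were 0.29 and -0.12, with unadjusted edgeR p-values of 0.401 and 0.749.

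In ELF1, which spans 15 bins, the called bins were at the ends of the gene. Bin 015, the most distal start exon (chr13:41634974-41635576, 5′UTR), held 39, 60 and 67 counts, 0.792% (95% Wilson interval 0.58 to 1.08), 1.61% (1.25 to 2.06) and 1.31% (1.03 to 1.66) of the gene. Its relative log2 fold change was 0.87 ± 0.40 (SE), with an unadjusted edgeR p of 0.0303 that became 1.0 on adjustment. WBP4, a gene on the other strand, overlaps this bin, and the libraries hold no strand, so reads of the 2 genes cannot be told apart there. The next start exon, bin 014, took 1.5%, 1.47% and 1.44%. Bin 001, the last 112 bases of the 3′UTR, rested on 5, 10 and 22 counts and had a relative log2 fold change of 1.79 ± 0.73 (SE), with an unadjusted edgeR p of 0.0139.

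**Figure D4:**
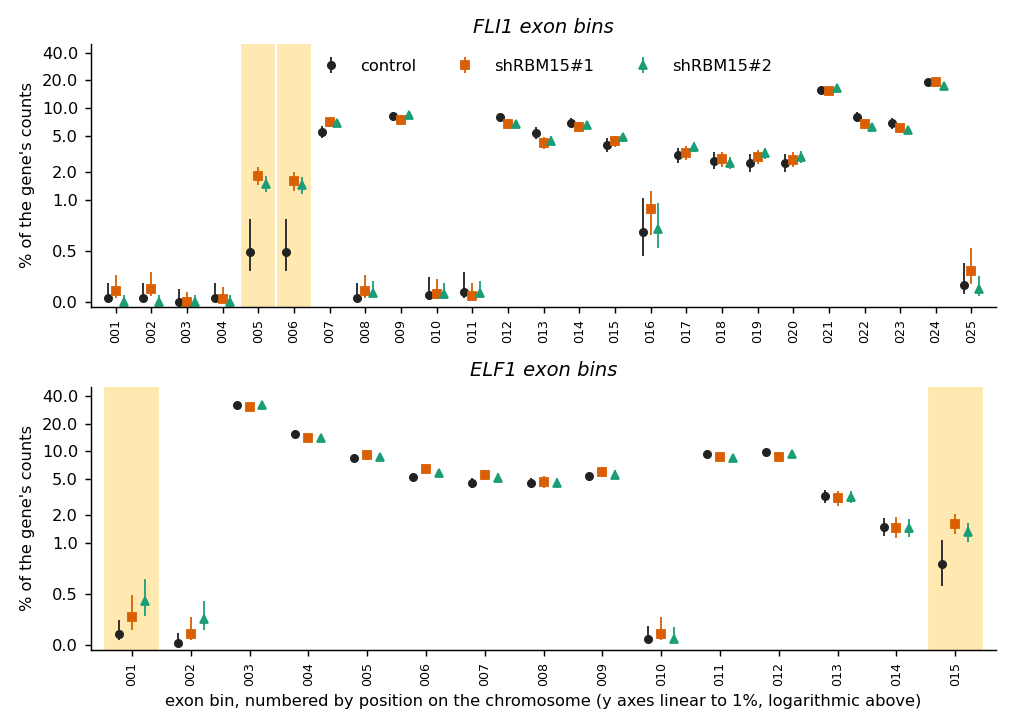
Share of the gene's counts in each exon bin of FLI1 and ELF1 in the 3 RNA-seq libraries, with 95% Wilson intervals for counting error; the y axes are linear up to 1% and logarithmic above. Shaded bins are those called at the study's limits, and in FLI1 bin 005 the knockdown lines lie at 1.82% and 1.48% against 0.491% in the control.

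The other members had no called bin. In ETV6 the smallest p was 0.0916, for bin 009, a non-coding exon with 18, 17 and 18 counts while the gene as a whole was lower in the lines. In ETS2 it was 0.122, for bin 005 in the 5′UTR, with 99, 81 and 116 counts. In GABPA it was 0.324, for the coding bin 006 with 44, 49 and 66 counts. In ETS1, where the exon of bins 010 and 011 is known to be left out of a shorter isoform, it took 6.32%, 7.5% and 6.06% of the counts, and the smallest p of the gene was 0.39, for bin 018. The distal start exons of ETS1 held 2, 13 and 6 counts against 72, 74 and 50 in the proximal one. In SPI1 the smallest p was 0.567, for bin 002 in the 3′UTR. With shRBM15#1, its relative log2 fold changes ran from -1.10 in bin 008 (45 counts in control cells and 6 in that line) to 0.97 in bin 004 (47 and 28 counts). The last exons of ETV6, ETS2 and GABPA took smaller shares of the counts in both lines than in the control. Those of the other members were not summed. SPI1 bins 001 to 003, at the 3′ end of the gene, each took larger shares in both lines.

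The 5 lists of related genes were compared in the same fit, where 12718 of the 24887 tested genes were higher and 12169 lower after knockdown, with a median change of 0.02 on the log2 scale. DESeq2 gave no adjusted p to some genes of low count, and the numbers with one were 11, 13, 9, 16 and 10 in the lists as ordered here. The 20 other ETS family genes gave 17 tested, 0 called in edgeR or DESeq2 and 7 at an unadjusted p under 0.05, with 9 higher and 8 lower and a median log2 fold change of 0.24. The largest differences belonged to genes with few counts. ELF3, an epithelial factor, had 2 counts in control cells, 68 under shRBM15#1 and 20 under shRBM15#2 (log2 fold change 4.46 ± 1.24 SE, adjusted p 0.121 in edgeR). ETV7, a relative of ETV6, had 3, 29 and 36 counts (3.41 ± 0.93 SE, adjusted p 0.116), and EHF, another epithelial factor, had 7, 66 and 35 (2.90 ± 0.84 SE, adjusted p 0.133). All 3 were at or below 1.52 CPM in every library, in the range of genes whose median lay above 0. Of the 20, 1 carried a RIP-seq site, ELF4, which is named here because of that site.

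Among the 15 partners and cofactors, all tested, 0 were called in edgeR or DESeq2, 4 had an unadjusted p under 0.05, and the median was 0.12 with 8 higher and 7 lower. RUNX1, the core binding factor that meets ETS proteins on shared enhancers, had 128 normalised CPM in control cells, 57.6 under shRBM15#1 and 70.5 under shRBM15#2. Its log2 fold change of -0.998 ± 0.232 (SE) had an adjusted p of 0.0777, and it carried 3 RIP-seq sites. GATA1, the master factor of red cells and MKs, had 71.7, 64.2 and 66.05 (log2 fold change -0.14, adjusted p 0.78) and 2 sites. TAL1, which binds with GATA factors and LMO2, had 236, 347 and 399 (0.66, adjusted p 0.193) and 1 site, and LYL1, its paralog, also had 1 site. GABPB1, the subunit that gives GABPA its activation domain, had 90.8, 66.01 and 68.5 (log2 fold change -0.43, adjusted p 0.328). The partners of low count were IRF4 (21, 122 and 61 counts), CEBPA (5, 13 and 33) and IRF8 (11, 37 and 19), with log2 fold changes of 2.19, 2.17 and 1.40 and adjusted p-values of 0.154, 0.282 and 0.41.

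Of 15 platelet and MK genes with ETS sites in their promoters, 12 were tested and 0 were called in edgeR (1 in DESeq2, THBS1), with 6 at an unadjusted p under 0.05. In this list 10 were higher and 2 lower, and the median log2 fold change was 0.82. PPBP, a platelet chemokine, was measured at 2.38 CPM in control cells, 6.12 under shRBM15#1 and 56.9 under shRBM15#2 (3.72 ± 1.12 SE, adjusted p 0.145). ITGB3, the beta chain of the fibrinogen receptor, was measured at 6.29, 17.9 and 51.8 (2.47 ± 0.58 SE, adjusted p 0.0823). Both were higher in each line and highest with shRBM15#2. ITGA2B, the alpha chain of the same receptor and the most abundant gene of the list, lay on the other side, at 918.7, 475.4 and 606.8 (-0.76 ± 0.24 SE, adjusted p 0.152). THBS1, which encodes a platelet granule glycoprotein, was highest with shRBM15#1, at 28.5, 104.7 and 61.2 (1.54 ± 0.34 SE, adjusted p 0.0694). ITGA2B and THBS1 were named after their values had been seen. GP5 rested on 3, 12 and 25 counts, and its fitted value of 2.58 had an adjusted p of 0.249.

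Among 19 myeloid genes regulated by SPI1, 17 were tested, and 1 was called in edgeR against 6 in DESeq2, where the shares of all genes with an adjusted p were 0.346% and 3.43%. CTSG, the granule protease cathepsin G, fell from 95.8 CPM in the control to 3.73 with shRBM15#1 and 8.55 with shRBM15#2, a log2 fold change of -3.96 ± 0.41 (SE) with an adjusted p of 0.00426 in edgeR, which became 0.029 when the test was limited to genes summing to 300 or more reads. Of the 17 genes, 13 were higher and 4 lower, with a median of 0.88. TLR4, a receptor for bacterial lipopolysaccharide, had 0.829, 5.69 and 6.55 CPM (2.88 ± 0.44 SE, adjusted p 0.0183), and its coreceptor CD14 had 0.263, 0.648 and 3.93 (3.12 ± 1.05 SE, adjusted p 0.176). Among the lower genes, which were named after their values had been seen, NCF4, a subunit of the phagocyte oxidase, had 182.8, 59.9 and 72.1 (-1.47 ± 0.23 SE, adjusted p 0.0184). CSF2RA, a chain of the GM-CSF receptor, had 41.97, 12.3 and 12.99 (-1.73 ± 0.26 SE, adjusted p 0.0155). Both were among the DESeq2 calls, as was TLR4. SPI1 itself was below the control in both lines, and whether the values of these genes are related to it was not tested.

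The 10 genes regulated by GABPA were all tested, 0 were called in edgeR or DESeq2, and 2 had an unadjusted edgeR p under 0.05. Of these genes 3 were higher and 7 lower, with a median log2 fold change of -0.07. Whether their values are related to that of GABPA was not tested. POLG2, a subunit of the mitochondrial DNA polymerase, had 45.1 CPM in control cells and 26.8 and 27.9 after knockdown (log2 fold change -0.72, adjusted p 0.174). TFB1M, a methyltransferase of mitochondrial ribosomal RNA, had 48.4, 29.4 and 30.5 (-0.69, adjusted p 0.184). TFB2M, a mitochondrial transcription factor and paralog of TFB1M, had 21.4, 28.9 and 37.66 (0.63, adjusted p 0.273).

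**Figure D5:**
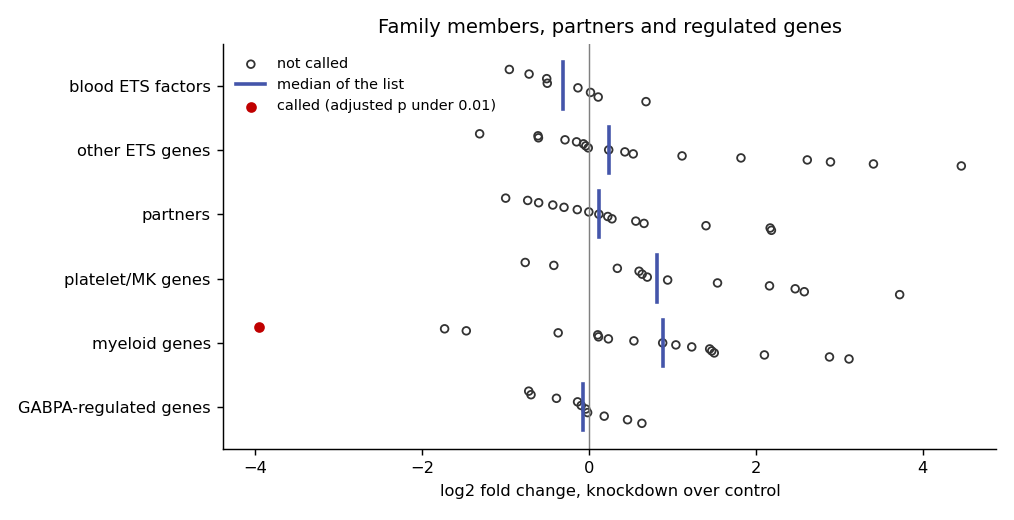
Log2 fold change of each tested gene in RBM15 knockdown over the control, for the 8 blood ETS factors and 5 lists of related genes, with the median of each list as a vertical line. Only CTSG among the myeloid genes was called in edgeR, and the medians run from -0.32 for the blood ETS factors to 0.88 for the myeloid genes.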

How the data were processed

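Per the labels and the study's methods, the authors used STAR to align paired-end RNA-seq reads without strand information (GRCh37), and the unit of the files they deposited is the raw count in each exon bin of Ensembl models. For the RIP-seq, the authors deposited raw counts per significant site (hg19). The submitters' notes name HTSeq 0.6.0, Picard 1.126 and bedtools 2.17.0 without roles. Fold changes and p-values in the deposited comparison tables were not used.

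Bin counts were added up for each gene, genes with under 30 in all were left out, and the rest were tested with edgeR 4.0.16 in R 4.3.3 (TMM normalization, quasi-likelihood test, two-sided, Benjamini-Hochberg adjustment over all genes). Exon usage was tested with diffSpliceDGE, and the SE of a bin is its relative change over the normal deviate of its p. Bins shorter than a read can share reads with their neighbours, as in FLI1 bin 006. Lines naming no gene held 23.2%, 32.0% and 23.5% of the counts. Per-line values use a prior count of 0.5. DESeq2 1.42.0 served as an alternative, and the fits were tested on simulated data.

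Symbols and regions came from GENCODE v44 lifted to GRCh37, and 264 of 310 edges of member bins fell on its exon edges. GP1BB was not matched and ATP5B was matched by its newer symbol. Named were all 8 members, the called genes and the 3 largest changes of each list, RUNX1, GATA1, TAL1, GABPB1 and RBM15, and each called or lowest-p bin. Members, lists and rules were chosen with earlier results of these data known. Libraries XZ4 and XZ5 entered no comparison. The sequence of the ERG site is not reported here.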

Additional observations from a re-analysis of the deposited data

Results flagged for a closer look

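Library XZ4 of the RIP-seq, which entered no comparison, held 157 reads in the FLI1 site and 132 in the ERG site. Both are above the normal IgG library, with 6 and 8 reads and upper 95% Poisson limits of 13.1 and 15.8. XZ4 is labelled normal immunoglobulin and XZ5 is labelled RBM15 antibody, yet XZ5 held 8 and 3 reads in these sites. XZ4 exceeded XZ5 in all 1515 sites of the list, with sums of 610915 and 28845 reads, and also exceeded the normal IgG library in all 1515. The list holds only sites that passed the authors' comparison of RBM15 with control libraries. An excess of XZ4 in listed sites can thus follow from the listing itself, and it was not tested. The antibody labels of these 2 libraries and the authors' comparison conflict, and which is right was not tested.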

How the results depend on the processing

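No paired analysis was possible because the groups share fewer than 2 replicate numbers. Under DESeq2 size factors, the DESeq2 Wald test, no filter on low counts, a summed count of at least 300, and only the bin with the most counts per gene (chosen after seeing the data, with 19286 genes), 0 members were called in any of them. Over all genes the calls were 86 in the main comparison and 191, 539, 801, 0 and 0 under these alternatives, with 53, 201, 275, 0 and 0 higher and 138, 338, 526, 0 and 0 lower. With no filter the median of all genes was 0.44, so TMM values there are shifted. ETS1 turned to -0.0304 and GABPA to -0.11 with no filter, ETS1 to -0.0465 with the bin of most counts, and ELF1 to 0.00723 at a count of at least 300. FLI1 ran from 0.56 to 0.82 and ETV6 from -1.08 to -0.81 over these 5 alternatives, with adjusted p-values of 0.0943 to 0.46 and 0.0257 to 0.11. Leaving out 1 knockdown line gave fold changes only. SPI1 then moved between -1.57 (without shRBM15#2) and -0.19 (without shRBM15#1), and ETS1 and GABPA changed sign. Bins called at the unadjusted limits numbered 8733 with bins of at least 1 read and 736 at a count of at least 300, where 0 member bins were called because all 4 fell below that count, and the adjusted calls went from 48 to 23 with bins of at least 1 read. With no filter 2 other ETS genes (ELF3 and ETV4), 3 platelet and MK genes (ITGB3, PPBP and THBS1) and 6 myeloid genes were called. The CTSG call was lost at a count of at least 300 and with the bin of most counts (adjusted p 0.029 and 0.0266). The cause of these changes was not tested. Depth limited bins such as ELF1 bin 001, and the single control limited every comparison.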
